A study of Oryza sativa with 2 samples.

Results

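Chromatin modifiers and small RNA factors were taken as all genes of the array whose RefSeq symbol or synonym begins, with any leading Os dropped, with the letters of a known family: SDG, HDA, HDT, SRT, HAC, HAG, JMJ, CMT, DRM, MET1 or CHR for chromatin, and AGO, DCL or RDR for small RNA. The rule found 27 genes of 15798, on 35 array features, of which 11 came in through chromatin letters and 16 through small RNA letters. Of the 27, 4 share only the letters: PAS2A and PAS2B (synonym HACD) are named for the dehydratase of very-long-chain fatty acid synthesis, WNK2 (synonym RDRS1) for a protein kinase, and rDRP1 is also named rab25. They are kept as members and named apart, which leaves 9 chromatin genes and 14 small RNA genes. The 9 are 5 DNA methyltransferases, 2 jumonji genes, 1 histone deacetylase and 1 histone lysine methyltransferase. No member came in through HDT, SRT, HAG or CHR, and HAC brought in only PAS2A and PAS2B. Genes of these families without such a name in the RefSeq table were not covered. The RefSeq table holds 32 genes that match the rule. The other 5, CMT1, EZ1 (also SDG718), JMJ703, AGO2 and AGO7, had no feature assigned to 1 gene and were not analysed here.

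RNA of rice (Oryza sativa) seedlings given 5 µM jasmonic acid (JA), a plant hormone of wounding and defence, was hybridised against RNA of control seedlings without it, on 2 two-colour oligonucleotide arrays of total RNA. Seedlings were 7 days old and grown in MS medium. The sample titles speak of shoots and the design text of whole seedlings, and one label has the treatment itself last 7 days. Treated RNA carried Cy5 and control RNA Cy3 on array 1, and the dyes were exchanged on array 2. Both arrays carry replicate number 1, though their titles end in Shoot1 and Shoot2. That both hold the same RNA is inferred from the replicate number. They were taken as 1 replicate, with no spread between plants and no test. The labels name no cultivar and no pooling of plants.

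Chromatin modifiers add or remove chemical groups on histones and DNA and so set how readily genes are transcribed. Small RNA pathways cut double-stranded RNA with Dicer-like enzymes, load the pieces onto Argonaute proteins, and use RNA-dependent RNA polymerases to make new double strands. The pathways meet in RNA-directed DNA methylation, where RDR2, AGO4-type Argonautes and the methyltransferase DRM2 place DNA methylation on matching sequences. Among the members, earlier work in rice tied JMJ705, a demethylase that removes a repressive histone mark, to jasmonate and defence genes, and AGO18, an antiviral Argonaute, to the factor JAMYB, which drives its transcription downstream of jasmonate.

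Each array gave 1 ratio for each of 22575 spots, here on the log2 scale, and the probes of a gene were averaged within each array. The ratios were not centred: the median of all spots was −0.30 on array 1 and −0.32 on array 2, so a ratio near −0.3 is that of a typical spot. Which dye is the numerator is not stated, so no value below has a settled direction. The swap mean takes the array 2 ratio from the array 1 ratio and divides by 2, and the plain mean is the mean of both as deposited. If the ratio is Cy5 over Cy3 on both arrays, a positive swap mean is higher in treated seedlings, and if it is Cy3 over Cy5, lower. If the ratio is treated over control on both, the plain mean carries the treatment and the swap mean a dye effect of the probe. The ratios are fractions of whole numbers, and the size of those numbers was used as a spot brightness (log2), a lower bound since common factors cancel. Markers of green shoots, mostly genes of photosynthesis and chlorophyll synthesis, were on bright spots. Their median brightness was 12.1 over 13 genes against 5.47 over all genes. Median brightness was 5.08 for 7 root markers and 3.37 for 11 seed markers. The root markers ran from 1.83 to 8.98 (Lsi1), and 2 of the 7 were at or above the median of all genes. The seed markers ran from 1.29 to 5.23. Brightness also holds probe effects, and these lists, set by symbol, took in a few genes of other roles. Genes were named through a rearranged spot grid, which no source states. Under it 0 of 228 control-like spots fell on a feature with a gene, against 194 of 228 with the spot numbers as deposited. Swap means of the 1690 genes with 2 probes showed a Spearman correlation of 0.30 between the probes, across genes, against 0.01 with the numbers as deposited.

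None of the 27 members was at least 2-fold from 1 in opposite senses on the exchanged arrays. Of the 27 members, 0 were at least 2-fold above 1 on array 1 and below it on array 2, where 0.5% of all genes were (79 of 15798). In the opposite sense the count was 0 of 27, where 0.165% of all genes were (26 of 15798). A single member, RDR4, was at least 2-fold below 1 on both arrays, 1 of 27 where 3.85% of all genes were, and 0 of 27 were above on both, where 0.0% of all genes were. The members' counts are near this background. The median swap mean was −0.05 for the 11 chromatin genes and 0.08 for the 16 small RNA genes, where it was 0.01 for all genes. Without the 4 genes that share only the letters these medians were −0.05 and 0.08. Swap means were above 0 in 4 of 11 chromatin genes and 10 of 16 small RNA genes, in all 14 of 27, where 51.7% of all genes were. Without the 4 genes that share only the letters they were above 0 in 4 of 9 and 9 of 14. The median plain mean was −0.23 for chromatin genes and −0.30 for small RNA genes, where it was −0.26 for all genes.

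**Figure D1:**
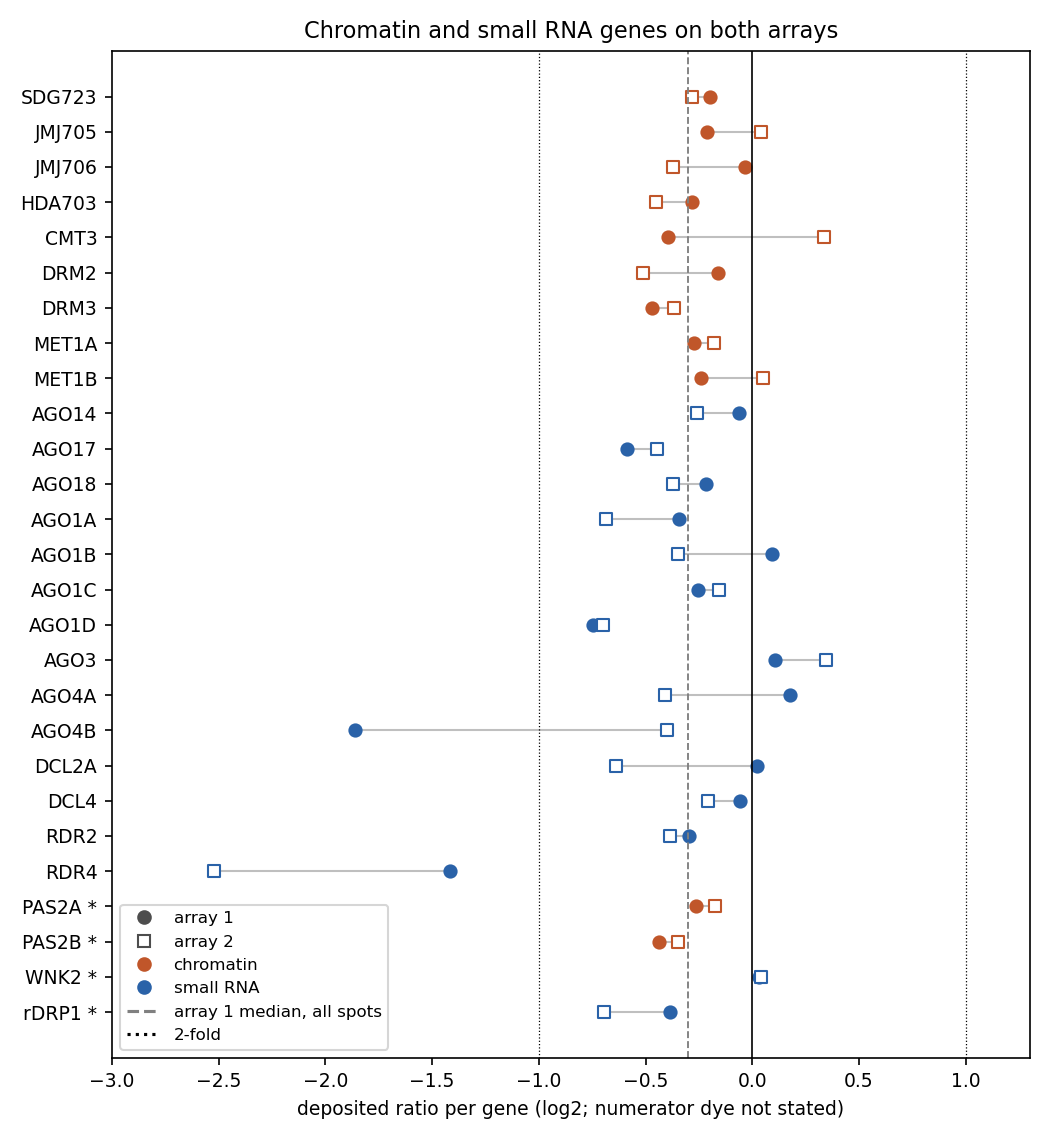
Deposited log2 ratio of each of the 27 members (rows) on array 1 (filled circles) and array 2 (open squares), with chromatin genes in orange and small RNA genes in blue. Asterisks mark the 4 genes that share only the letters, the dashed line is the array 1 median of all spots (−0.30) and dotted lines are 2-fold; RDR4 is the single gene beyond 2-fold on both arrays.

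Among the histone-modifying genes, JMJ705 had ratios (log2) of −0.21 on array 1 and 0.04 on array 2, which gives a swap mean of −0.13. Both ratios lay above their array's median, by 0.09 and 0.36, but the plain mean lay above the array medians in most genes of its brightness group. With brightness-dependent centring, which takes off the ratio usual at a spot's brightness, JMJ705 had −0.11 and 0.15, so whether it turned with the dyes depends on the centring. JMJ706, a demethylase of another repressive histone mark known for its part in flower development, had −0.03 and −0.37, a swap mean of 0.17. With the medians taken off it had 0.27 on array 1 and −0.05 on array 2, and with brightness-dependent centring 0.07 and −0.26, so the arrays went opposite ways under both but the larger ratio moved from one array to the other. HDA703, a histone deacetylase, had −0.28 and −0.45, a swap mean of 0.09. SDG723, the trithorax-type histone methyltransferase also named OsTrx1 and known to promote flowering, had −0.20 and −0.28, a swap mean of 0.04. Its probes gave 0.05 and 0.03, the smallest range among the 7 members with several probes. As folds, the swap means of these 4 genes were between 1.03 and 1.12.

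The DNA methyltransferases held the chromatin gene with the largest swap mean in size. CMT3 (OsCMT3a), a chromomethylase of the type that copies methylation at non-CG sites, had −0.39 on array 1 and 0.33 on array 2, for a swap mean of −0.36 or 1.29-fold. The recovered fractions were 35 over 46 and 169 over 134, so array 2 had the ratio above 1 and array 1 the one below it. Its brightness of 6.28 was above that of the median gene. With the medians taken off CMT3 had −0.09 and 0.65, and with brightness-dependent centring −0.24 and 0.50, so the larger part lay on array 2 under both. MET1B, a gene for the methyltransferase that keeps CG methylation through replication, had −0.24 and 0.05, a swap mean of −0.14. Its paralog MET1A had −0.27 and −0.18, a swap mean of −0.05. DRM2, the methyltransferase directed by small RNAs, had −0.16 and −0.51, a swap mean of 0.17. Swap means were above 0 in 1 of 5 DNA methyltransferase genes, DRM2, where 51.7% of all genes were. DRM3, a relative of DRM2, had −0.47 and −0.37, a swap mean of −0.05, but its probes disagreed in sign: the brighter gave 0.08 and the dimmer −0.18.

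Of the 10 Argonaute genes, 5 had a swap mean above 0, where 51.7% of all genes did. The Argonaute median was 0.03 and the range ran from −0.73 to 0.29. The AGO1 genes encode the main carriers of microRNAs. AGO1A had −0.34 on array 1 and −0.69 on array 2, for a swap mean of 0.17. AGO1B had 0.09 and −0.35, a swap mean of 0.22. AGO1C had −0.25 and −0.16, a swap mean of −0.05. AGO1D had −0.75 and −0.70, a swap mean of −0.02. AGO1B was thus the AGO1 gene with the largest swap mean and AGO1D the one with the lowest ratios on both arrays. The AGO1D ratios rest on a brighter probe with −0.49 and −0.52 and another with −1 and −0.88. The fractions of the second probe were 1 over 2 and 25 over 46, and its brightness of 2.79 is a lower bound. Probe sequences were not used here, so cross-hybridisation between close relatives such as these was not tested.

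The AGO4 genes, whose proteins carry the small RNAs of DNA methylation, had the highest and the lowest swap mean of the 10 Argonaute genes. AGO4A had 0.18 on array 1 and −0.41 on array 2, for a swap mean of 0.29 or 1.23-fold, at a brightness of 5.66. AGO4B had −1.86 and −0.40, a swap mean of −0.73 or 1.66-fold, the largest in size among the 27 members. This value came from array 1: its dimmer probe had −2.58 there, a fraction of 1 over 6, and the brighter −1.14, or 5 over 11, while both had −0.40 on array 2. The AGO4B probes agreed in sign with swap means of −1.09 and −0.37. Their brightness, a lower bound, was below that of the median gene, at 2.87 and 4.09. With the array medians taken off AGO4B had −1.56 on array 1 and −0.08 on array 2. With brightness-dependent centring it had −1.23 and 0.29, so the sign on array 2, and with it whether AGO4B turned with the dyes, depends on the centring.

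AGO18 had −0.22 on array 1 and −0.37 on array 2, for a swap mean of 0.08. Its probes gave 0.10 and 0.05. As a fold this was 1.05, and 66.6% of genes in the same of the 4 equal brightness groups had a swap mean at or below it. AGO3 had the only ratio above 1 on both arrays among Argonautes, with 0.11 and 0.35 at a brightness of 8.33, the brightest of the members. Its swap mean was −0.12 and its plain mean 0.23. AGO14 had −0.06 and −0.26, a swap mean of 0.10. AGO17 had −0.58 and −0.45, a swap mean of −0.07, from fractions of 2 over 3 and 11 over 15. Its brightness of 2.49, a lower bound, was the lowest of the members.

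The Dicer-like genes both had positive swap means, where 51.7% of all genes did. DCL2A, of the Dicer-like type known from antiviral silencing, had 0.02 on array 1 and −0.64 on array 2, for a swap mean of 0.33 or 1.26-fold. With the medians taken off it had 0.32 and −0.32, and with brightness-dependent centring 0.39 and −0.25, so it turned with the dyes under both. Its probes agreed in sign, with 0.15 for the brighter and 0.51 for the dimmer, and their fractions were 12 over 13 and 82 over 109, against 29 over 26 and 17 over 31. DCL4, also named SHO1, makes trans-acting small RNAs needed for shoot and leaf development. It had −0.06 and −0.21, a swap mean of 0.07, and both ratios lay above their array's median. With brightness-dependent centring DCL4 had 0.10 on array 1 and −0.04 on array 2.

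RDR2, the polymerase that supplies double-stranded RNA for DNA methylation, had −0.30 on array 1 and −0.38 on array 2, for a swap mean of 0.04. RDR4, of the same enzyme family, had −1.42 and −2.52, a plain mean of −1.97 and a swap mean of 0.55. The fractions behind it were 3 over 8 and 4 over 23, on a spot of brightness 2.78. Ratios at least 2-fold below 1 on both arrays were common on such spots. In the dimmest of the 4 brightness groups 15.0% of 3950 genes had them, where 3.85% of all genes did. Brightness is read from the same fractions as the ratios, so a low ratio and a low brightness are not independent. With brightness-dependent centring RDR4 had −0.65 on array 1 and −1.69 on array 2, no longer 2-fold below 1 on both. Among the genes that share only the letters, rDRP1 had −0.39 and −0.70, PAS2A −0.27 and −0.17, PAS2B −0.44 and −0.35, and WNK2 0.03 and 0.04. Their swap means ran from −0.05 to 0.15.

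**Figure D2:**
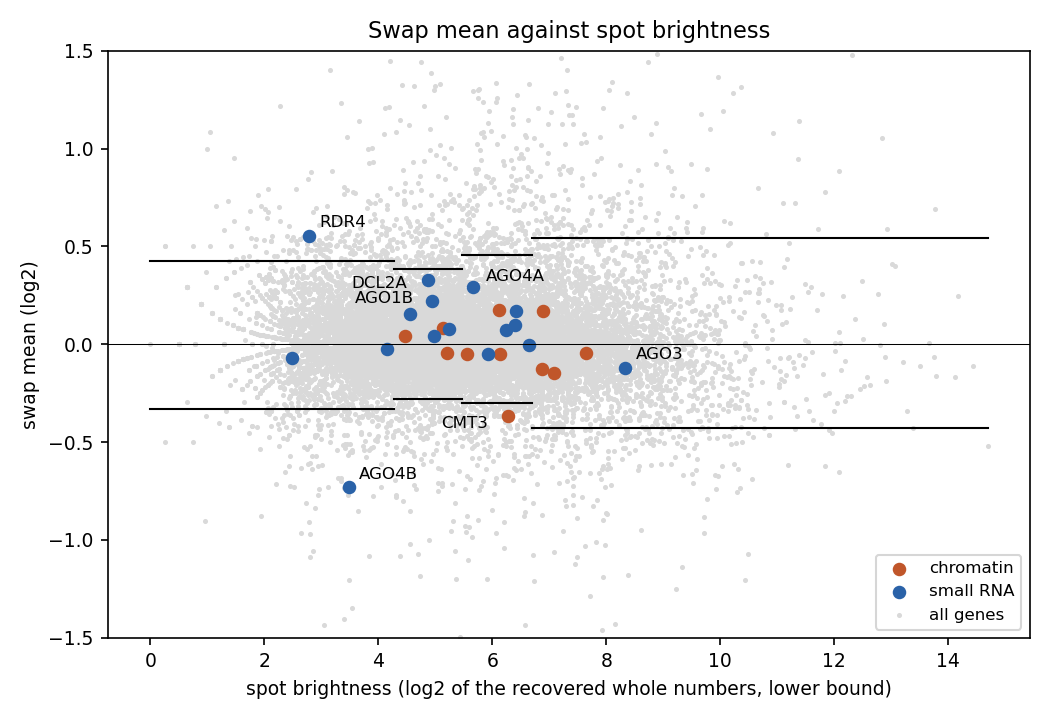
Swap mean (log2, vertical) against spot brightness (log2, horizontal) for chromatin genes (orange), small RNA genes (blue) and all genes (grey). The 4 genes that share only the letters are coloured by those letters. Black lines bound the central 90% of genes in each of 4 brightness groups, 54 genes beyond 1.5 in size are not drawn, and the members outside the lines are AGO4B, CMT3 and RDR4.

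Set against genes of like brightness, 3 of the 27 members lay outside the central 90% of swap means of their brightness group, AGO4B and CMT3 below it and RDR4 above it. By construction 10.0% of all genes lie outside, so the count is near the background. The central 90% ran from −0.33 to 0.42 in the dimmest group, from −0.28 to 0.39 and from −0.30 to 0.46 in the middle groups, and from −0.43 to 0.54 in the brightest. AGO4B and RDR4 were in the dimmest group and CMT3 in the third. DCL2A and AGO4A lay inside, with 93.4% and 90.4% of genes of their group at or below them. Plain means with the array medians taken off set other members apart. AGO3 (0.53) lay above the central 90% of its group, which ended at 0.51. AGO1A (−0.21) lay below its group's lower bound of −0.16, and RDR4 (−1.66) below −1.19. Here too 10.0% of all genes lie outside by construction.

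Once the array medians were taken off, 9 of the 27 members had ratios of opposite sign on the exchanged arrays, where 36.6% of all genes did. They were CMT3, DRM2, HDA703 and JMJ706 among chromatin genes, and AGO18, AGO1B, AGO4A, DCL2A and RDR2 among small RNA genes. With brightness-dependent centring the count was 17 of 27, where 45.8% of all genes had opposite signs. It held 8 of the 9, without AGO1B, and 9 others: AGO4B, JMJ705, MET1A, MET1B, PAS2B, AGO14, AGO1C, DCL4 and rDRP1. Some of these signs rest on values near 0. With the medians taken off RDR2 had 0.004 on array 1. With brightness-dependent centring MET1A had 0.003 on array 2 and DRM2 had 0.007 on array 1. How often this was so over all genes was not counted. RDR4 had ratios of the same sign under both settings. Ratios below 1 on both arrays as deposited were found in 19 of 27 members, where 66.7% of all genes had them.

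**Figure D3:**
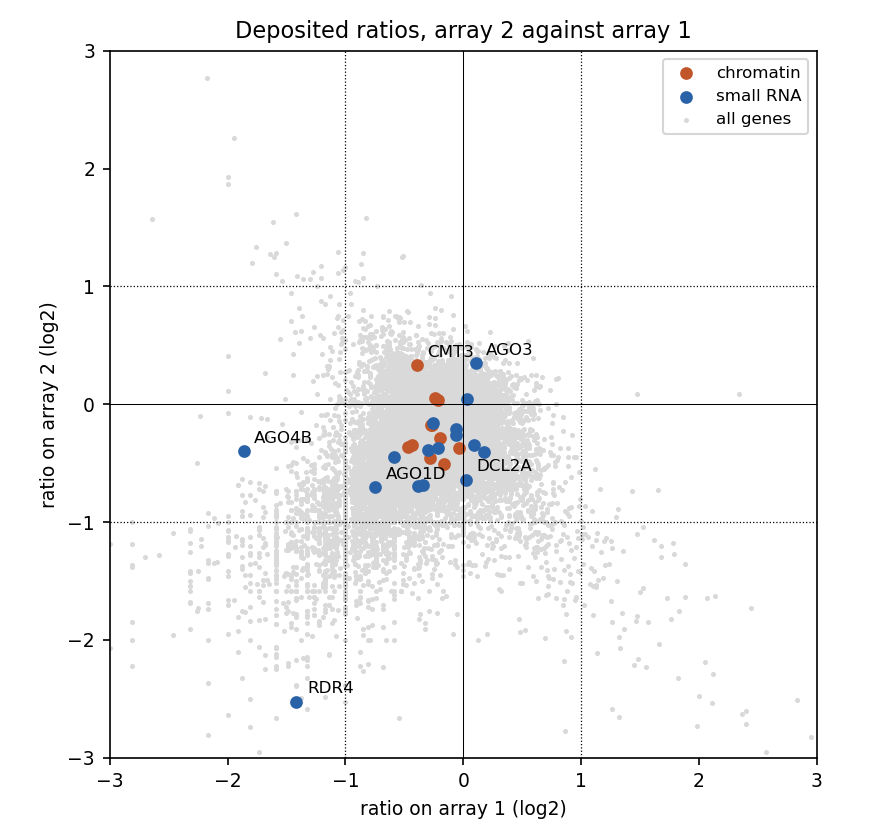
Ratio on array 2 (log2, vertical) against ratio on array 1 (log2, horizontal) for chromatin genes (orange), small RNA genes (blue) and all genes (grey), with dotted lines at 2-fold. The 4 genes that share only the letters are coloured by those letters. The 18 genes with a ratio beyond 3 in size are not drawn; RDR4 sits in the lower left, AGO4B far left at −1.86 on array 1, and the upper left and lower right corners, where genes 2-fold in opposite senses lie, hold no member.

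The members with several probes give the gap between probes named for the same gene. Whether such probes read the same transcript was not tested. In 3 of these 7 genes, AGO1D, DRM3 and PAS2B, the probes had swap means of opposite sign, where 41.8% of the 1859 genes with several probes did. The range between probes of a gene had a median of 0.10 over the 7 members and of 0.16 over all such genes. It was 0.73 in AGO4B and 0.36 in DCL2A, the members with the largest swap means in size among the 7, and 0.02 in SDG723. Swap means of 0.16 or less in size, as in JMJ705, HDA703, AGO18, DCL4 and RDR2, are thus no larger than this median gap over all such genes. The AGO18 probes themselves lay 0.06 apart, less than the AGO18 swap mean of 0.08.

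**Figure D4:**
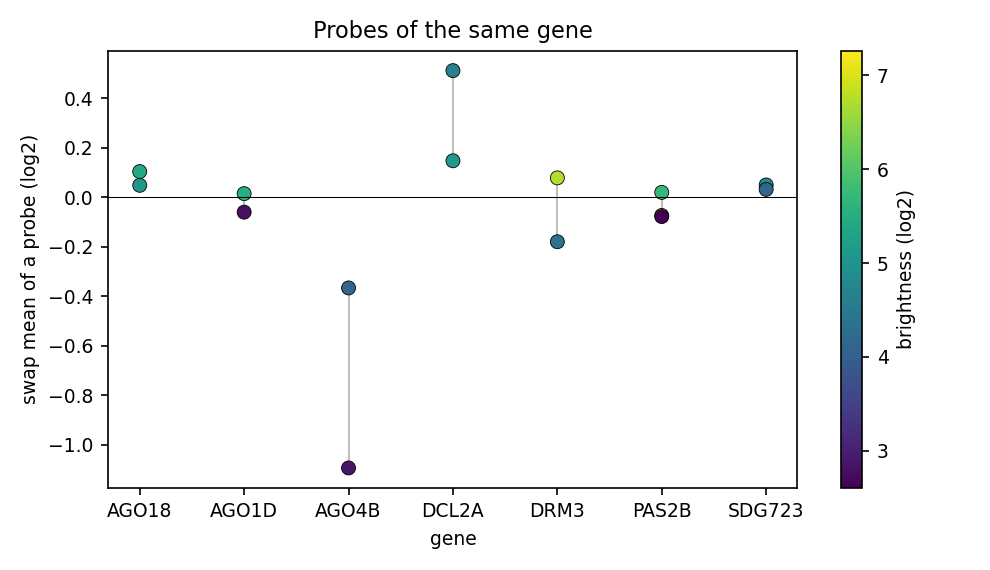
Swap mean (log2, vertical) of each probe of the 7 members with several probes, coloured by spot brightness (log2). The AGO4B probes lie at −1.09 and −0.37 and the DCL2A probes at 0.51 and 0.15, while the probes of AGO1D, DRM3 and PAS2B lie on both sides of 0.

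Other genes of these pathways, from a list of names outside the rule, gave 3 chromatin genes and 8 small RNA genes on the array. None of the 11 was 2-fold from 1 on both arrays in either the same or opposite senses. Over all genes, 0.5% and 0.165% were so in the opposite senses, 3.85% were below on both and 0.0% above on both. SGS3, which stabilises RNA for RNA-dependent polymerases, had −0.49 on array 1 and −1.31 on array 2, for a swap mean of 0.41 at a brightness of 3.73. DRB3 (LOC4337826), 1 of the double-stranded RNA-binding proteins that include partners of Dicer-like enzymes, had 0.05 and −0.48, a swap mean of 0.27. SHL2, a gene needed for shoot formation, had −0.69 and −0.56, a swap mean of −0.06. The small RNA list had a median swap mean of 0.05, with 6 of 8 above 0. For all genes the median was 0.01 and 51.7% were above 0. Of the chromatin list, the DNA demethylase ROS1C (DNG701) had −0.71 and −0.88, the histone-binding MSI1 0.26 and 0.01, and the remodelling subunit SWI3C −0.64 and −1.04, with swap means of 0.08, 0.12 and 0.20.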

How the data were processed

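The authors deposited 1 log10 ratio per spot and array, 22575 spots on each of 2 arrays. Scanning and spot extraction used GenePix, and normalization GeneSpring version 4, per the labels' design text. How background was corrected, which filters were set and which dye is the numerator is not stated there. Medians of the deposited log10 values were −0.0902 and −0.0954. Values were turned to log2, spots were placed on features by the rearranged grid, and names came from the probe annotation (17839 features with 1 gene, 21 with several, 4715 not listed) and the RefSeq table of assembly ASM3414082v1, in which all 17839 matched. The fraction behind each ratio was the simplest within 6e-10 (log10). Control-like spots were below −2.2 (log2) on both arrays with a brightness above 4.5. All members were named, with the same values for each. Members and lists were chosen with earlier results of these data known. Alternatives were centring, brightness-dependent centring, another fold, bright genes only, single probes and each array alone. The number of arrays limits the precision, and no test was possible. Python 3.11.15, pandas 2.3.3 and statsmodels 0.14.6 (lowess fraction 0.3) were used. Fraction recovery, swap means and 2-fold calls were tested on simulated data, with planted changes larger than any member's swap mean. Brightness-dependent centring and the averaging of probes were not part of that test. No sequences are given.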

Additional observations from a re-analysis of the deposited data

How the results depend on the processing

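The settings without the 4 genes that share only letters and with names by spot number were chosen after seeing the data, and causes of change were not tested unless named. The counts of 0 members 2-fold in opposite senses, and of 0 members above on both arrays, were 0 with centring, brightness-dependent centring, 1.5-fold, bright genes only, single probes and both added settings. With an array alone they were 0 to 1 for higher on array 1, 0 to 2 for higher on array 2 and 0 for above on both. The 1 member lower on both arrays, RDR4, became 0 with brightness-dependent centring, 0 among bright genes, 2 at 1.5-fold, 5 with names by spot number, and 1 to 2 with an array alone. The chromatin median swap mean of −0.0463 was −0.00195 with names by spot number and −0.265 to 0.282 with an array alone, which keeps that array's offset. The small RNA median of 0.0755 was 0.0669 centred, 0.0176 with names by spot number and −0.236 to 0.392 with an array alone. The chromatin median plain mean of −0.227 was 0.0813 centred, −0.042 with brightness-dependent centring, −0.211 among bright genes, −0.31 with names by spot number and −0.282 to −0.265 with an array alone. The small RNA one of −0.301 was 0.00695 centred, 0.0118 with brightness-dependent centring, −0.133 among bright genes, −0.889 with names by spot number and −0.392 to −0.236 with an array alone. Members with ratios of opposite sign numbered 9 with centring and 17 with brightness-dependent centring, a count added after seeing the data. Centring moved all plain means up by the array medians. Swap means of all 27 members kept their sign under both kinds of centring and moved by at most 0.04. No paired analysis was possible because both arrays carry replicate number 1 and were taken as 1 replicate.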
